A study of Mus musculus with 6 samples.

Results

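The late cornified envelope genes of the Lce1 group were followed in mouse back skin with and without Get1. The set comprised Lce1a1, Lce1b, Lce1c, Lce1d, Lce1f, Lce1g, Lce1h, Lce1i and Lce1m, chosen by gene name, and every probe set that the platform annotation gives to 1 of these 9 genes was taken. This gave 11 probe sets of 45037 on the array that are not controls: 2 each for Lce1a1 and Lce1f and 1 for each of the other genes. None of the 11 carried a second gene symbol. By their names, 5 of them (ending in _x_at or _s_at) can also bind related transcripts, so the signals of Lce1d, Lce1h, Lce1i and Lce1m and 1 of the 2 Lce1a1 signals may include neighbours of the family.

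The arrays came from 3 Get1 +/+ mice and 3 Get1 -/- mice, each array from the back skin of 1 mouse at e18.5. Get1 is known today as Grhl3, a grainyhead-family transcription factor of surface epithelia, and the comparison asks how its loss bears on the skin transcriptome shortly before birth. The labels give no strain, sex or litter and do not say which part of Get1 was removed. Values are MAS5 signals, which are linear and in arbitrary units.

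Late cornified envelope proteins are small, cysteine-rich and glycine-rich precursors of the cornified envelope, the crosslinked protein shell that replaces the plasma membrane of dying keratinocytes. They are made late in differentiation, in the uppermost living layers of the epidermis, and are joined to loricrin and small proline-rich proteins by transglutaminases. Their genes lie in the epidermal differentiation complex, a dense cluster of barrier genes. Lce1 genes are known from normal skin, whereas Lce3 genes are known from injured or inflamed skin.

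In RefSeq order, 8 of the 9 genes lie in 1 run that begins with Lce1a1 and ends with Lce1i, interrupted within the list of cluster genes only by Lce1a2 and Lce1e. Lce1m, also listed there as Lce5a, stands apart, beyond the Lce3 genes and next to Crct1. Promoter sequences were found in the RefSeq table (GRCm38.p6) for 8 of the 9 genes. The last 100 bases before the start are shown for 4 of them, with Lce1m among them because its promoter was least like the others. Whether promoter sequence bears on the changes in expression was not tested. The capitals mark TATAAA and the string ACTGTCTCAC. The windows are Lce1a1 at chr3:92648308-92648407 (minus strand), Lce1c at chr3:92679147-92679246 (plus strand), Lce1d at chr3:92687211-92687310 (minus strand) and Lce1m at chr3:93019062-93019161 (minus strand).
Lce1a1: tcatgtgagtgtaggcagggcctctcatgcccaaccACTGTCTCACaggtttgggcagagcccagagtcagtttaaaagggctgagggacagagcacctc
Lce1c: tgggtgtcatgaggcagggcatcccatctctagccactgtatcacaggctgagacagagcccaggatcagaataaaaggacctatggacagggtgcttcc
Lce1d: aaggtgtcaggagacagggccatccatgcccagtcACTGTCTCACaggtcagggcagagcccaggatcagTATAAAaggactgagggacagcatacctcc
Lce1m: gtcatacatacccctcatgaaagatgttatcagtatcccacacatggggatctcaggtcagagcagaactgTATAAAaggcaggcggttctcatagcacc

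Over windows from 250 bases before to 50 after the start, the Lce1m promoter was identical to those of the other 7 genes at 52.7% to 55.1% of aligned positions. Against 44 promoters of non-Lce1 genes of the cluster its identity was 48.0% to 54.4%, with a median of 51.8%, so these ranges overlapped. Each of the other 7 promoters had a median identity to the family of 66.5% to 67.5%, and the pair Lce1g and Lce1i reached 86.0%. The string ACTGTCTCAC, among the longest found in at least 6 of the 8 windows and picked for that, was in those of Lce1a1, Lce1b, Lce1d, Lce1g, Lce1h and Lce1i and in 0.14% of all 32851 promoters. ACAGATCTTG and AGATCTTGTG, of the same length, were each in 6 of the 8 windows, with that of Lce1c among them and without that of Lce1m. The shorter AGATCTT was in all 8, against 3.27% of all promoters. TATAAA was in 2 of the 8 windows, those of Lce1d and Lce1m, against 13.6% of all promoters. The grainyhead motif AACCGGTT, its form with a free base AACNGGTT and the AP-1 motif TGANTCA, searched on both strands, were in 0 of the 8, against 0.146%, 2.09% and 7.81% of all promoters. These windows are short, and a missing match says only that the letters are not in them.

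Lce1m had the largest change of the group. Its signals were 6133, 11482 and 7536 in Get1 +/+ replicates 1, 2 and 3, and 932, 3306 and 2833 in Get1 -/- replicates 1, 2 and 3. The highest Get1 -/- value lay well below the lowest Get1 +/+ value, and the group means were 8384 ± 2773 and 2357 ± 1257 (SD, n = 3). The log2 change was -1.98 ± 0.44 (SE), a 3.93-fold lower geometric mean without Get1 (2059 against 8096), with a 95% interval of -2.98 to -0.97. Its adjusted p of 0.538 (limma, Benjamini-Hochberg over 22519 probe sets) missed the threshold of 0.05. Once genotype means were removed, arrays of the same replicate number correlated weakly in these data (r of 0.133, 0.26 and 0.14). The labels do not say that they are pairs. With the number as a block the same change of Lce1m passed (adjusted p = 0.0346, limma), as 0.102% of all kept probe sets did in that direction. That value rests on a pairing read from these data. Over the 16 alternatives to the main setting its adjusted p ran from 0.0346 to 0.997, and the block was the only one in which it passed.

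Lce1c followed at some distance. Its signals were 12675, 19461 and 12670 in the Get1 +/+ mice and 4055, 9656 and 8131 in the Get1 -/- mice, in replicate order. Again the genotypes did not overlap. The log2 change was -1.10 ± 0.31, a 2.14-fold lower geometric mean, with a 95% interval of -1.80 to -0.40 and an adjusted p of 0.737 in limma. Its smallest adjusted p over the alternatives was 0.0937, with the replicate block.

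Lce1h and Lce1i, neighbours at the far end of the main run, came next. Lce1h read 6639, 14503 and 5950 in Get1 +/+ skin and 2776, 5797 and 5811 in Get1 -/- skin, in replicate order. The genotypes of Lce1h were separated by a small gap between 5811 and 5950, while Get1 +/+ replicate 2 stood far above all others. Its log2 change was -0.87 ± 0.38. Lce1i read 14094, 19340 and 10451 in Get1 +/+ skin and 4780, 10500 and 10379 in Get1 -/- skin. Here the highest Get1 -/- array exceeded the lowest Get1 +/+ array, and the log2 change was -0.82 ± 0.32.

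In the first part of the run, Lce1a1, Lce1b and Lce1d had nearly equal changes. They are not an unbroken block, because Lce1a2 (-0.49) and Lce1c (-1.10) lie between Lce1b and Lce1d. Lce1b read 8166, 12383 and 8249 in Get1 +/+ skin and 3869, 7481 and 7576 in Get1 -/- skin, in replicate order, a log2 change of -0.64 ± 0.27. Lce1d read 8015, 13134 and 8290 against 3870, 7744 and 7337, a change of -0.66 ± 0.29. In both genes all Get1 -/- values lay below all Get1 +/+ values, but the nearest arrays of the 2 genotypes differed by less than the arrays of 1 genotype did among themselves. The 2 Lce1a1 probe sets gave -0.66 ± 0.28 (1420676_at) and -0.65 ± 0.26 (1420677_x_at). The first read 8685, 14807 and 10950 against 4585, 9211 and 8469, and its genotypes overlapped, while those of the second did not.

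Lce1f differed least between genotypes. Its probe set 1420550_at read 9488, 16673 and 10175 in Get1 +/+ skin and 6580, 12266 and 11391 in Get1 -/- skin, so 2 of the 3 Get1 -/- arrays lay above 2 of the 3 Get1 +/+ arrays. The log2 change was -0.27 ± 0.27, with a 95% interval of -0.89 to 0.35. The other Lce1f probe set, 1449902_at, gave lower signals, 506, 2389 and 515 against 319, 1413 and 743. It had the widest scatter of the group, 4.72-fold between the lowest and highest Get1 +/+ arrays, and a log2 change of -0.30 ± 0.67. Lce1g also gave low signals, 239, 478 and 312 in Get1 +/+ skin and 159, 270 and 195 in Get1 -/- skin, and its genotypes overlapped. Its log2 change was -0.69 ± 0.31.

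**Figure D1:**
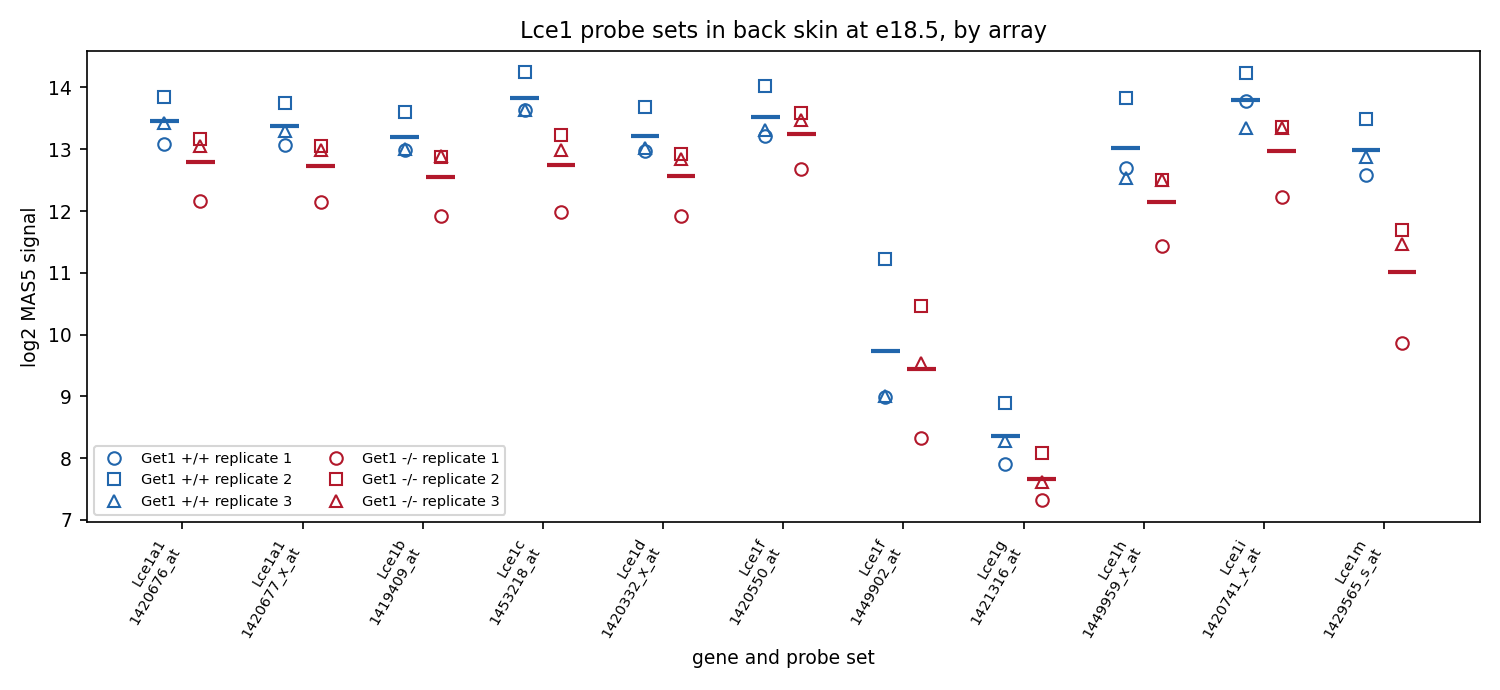
Log2 MAS5 signal (vertical axis) of each of the 11 Lce1 probe sets (horizontal axis) on the 6 arrays. Blue stands for Get1 +/+ and red for Get1 -/-, symbols give the replicate number and bars the mean of 3 arrays. Get1 +/+ replicate 2 is the highest and Get1 -/- replicate 1 the lowest array in all 11 probe sets, and only Lce1m and Lce1c show a wide gap between the genotypes.

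All 11 Lce1 probe sets passed the filter on low signals and all 11 had a lower mean in Get1 -/- skin, where 49.8% of the 22519 kept probe sets did. Their median log2 change was -0.66, beside 0.0015 over all kept probe sets. At an adjusted p under 0.05 limma called 0 of the 11, where it called 6 of all kept probe sets (0.0266%). At an unadjusted p under 0.05, 8 of the 11 were lower, against 3.76% of all kept probe sets, and the adjusted p of the 11 ran from 0.538 to 0.947. The count of 8 depended on single arrays: it fell to 2 when Get1 +/+ replicate 2 was left out, also to 2 when Get1 -/- replicate 1 was, and to 4 when Get1 +/+ replicate 3 was. It was 5 with median centring, 2 with eBayes without trend and 9 with the replicate block. A log2 change of -1 or below was seen in 2 of the 11, against 0.755%. The genotypes did not overlap in 6 of the 11, all lower in Get1 -/- skin, against 6.51% of all kept probe sets. The probe sets share sequence, tissue and arrays, so these counts are not 11 independent observations. In whole skin, fewer cells of a type and less RNA per cell cannot be told apart.

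The Lce1 signals moved together from mouse to mouse within a genotype. After removing the genotype means, pairs of Lce1 probe sets correlated over the 6 arrays with a median r of 0.948, between 0.682 and 0.997 over 55 pairs, which share arrays and, in part, sequence. Get1 -/- replicate 1 was the lowest of the 6 arrays in all 11 probe sets, and Get1 +/+ replicate 2 was the highest in all 11. Averaged over the 11, the log2 deviation from the mean of 6 arrays was -1.11 on the former and 0.97 on the latter. On the remaining arrays it was 0.067 and 0.14 in Get1 +/+ replicates 1 and 3, and 0.067 and -0.14 in Get1 -/- replicates 2 and 3. The within-genotype SD of the log2 signal ran from 0.43 for the second Lce1a1 probe set to 1.19 for Lce1f 1449902_at, where the median of all kept probe sets was 0.26.

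Each comparison was repeated without these 2 arrays. They are the extremes of the 11 probe sets in the direction of the difference, so leaving them out had to make it smaller. The choice can also narrow the spread within a genotype, as for Lce1m, whose SE was 0.44 with all arrays and 0.21 without both. The changes, SE, intervals and p without these arrays are therefore a description of the other 4 arrays and do not serve as tests. The median log2 change of the 11 was -0.46 without Get1 +/+ replicate 2, -0.36 without Get1 -/- replicate 1, and -0.14 without both. With both left out, 9 of 11 probe sets were lower in Get1 -/- skin, against 53.4% of all kept probe sets, and 2 of them at an unadjusted p under 0.05 in limma, against 1.52%. Those 2 were Lce1m and Lce1c. Lce1m then changed by -1.15 ± 0.21, with a 95% interval of -1.63 to -0.68 and an adjusted p of 0.439. Lce1c changed by -0.52 ± 0.18, with an interval of -0.93 to -0.11. The intervals of Lce1a1, Lce1b, Lce1d, Lce1g, Lce1h and Lce1i all included 0 with these 2 arrays left out, and their changes lay between -0.25 and -0.11.

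Lce1f turned direction. Without both arrays its 2 log2 changes were above 0, at 0.27 ± 0.17 for 1420550_at, with an interval of -0.13 to 0.66, and 1.01 ± 0.32 for 1449902_at, with an interval of 0.29 to 1.72. The latter was the 1 Lce1 probe set higher at an unadjusted p under 0.05 in limma, against 1.28% of all kept probe sets. Leaving out these arrays had to move both Lce1f changes upward, so these values too are a description only. The adjusted p was 1.00 for both Lce1f probe sets and for Lce1c.

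The arrays were also read by replicate number, which keeps all 6. Between the Get1 -/- and the Get1 +/+ array of the same number, the mean Lce1 deviation differed by -1.18, -0.90 and -0.28 for numbers 1, 2 and 3. All 3 differences were below 0 in 9 of the 11 probe sets, against 17.1% of all kept probe sets. The exceptions were both Lce1f probe sets, which were higher in the Get1 -/- array of number 3, by 0.16 and 0.53. Lce1m differed by -2.72, -1.80 and -1.41, and Lce1c by -1.64, -1.01 and -0.64. The differences of Lce1h and Lce1i in number 3 were close to 0, at -0.034 and -0.010. The labels do not say that equal numbers mark related mice.

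**Figure D2:**
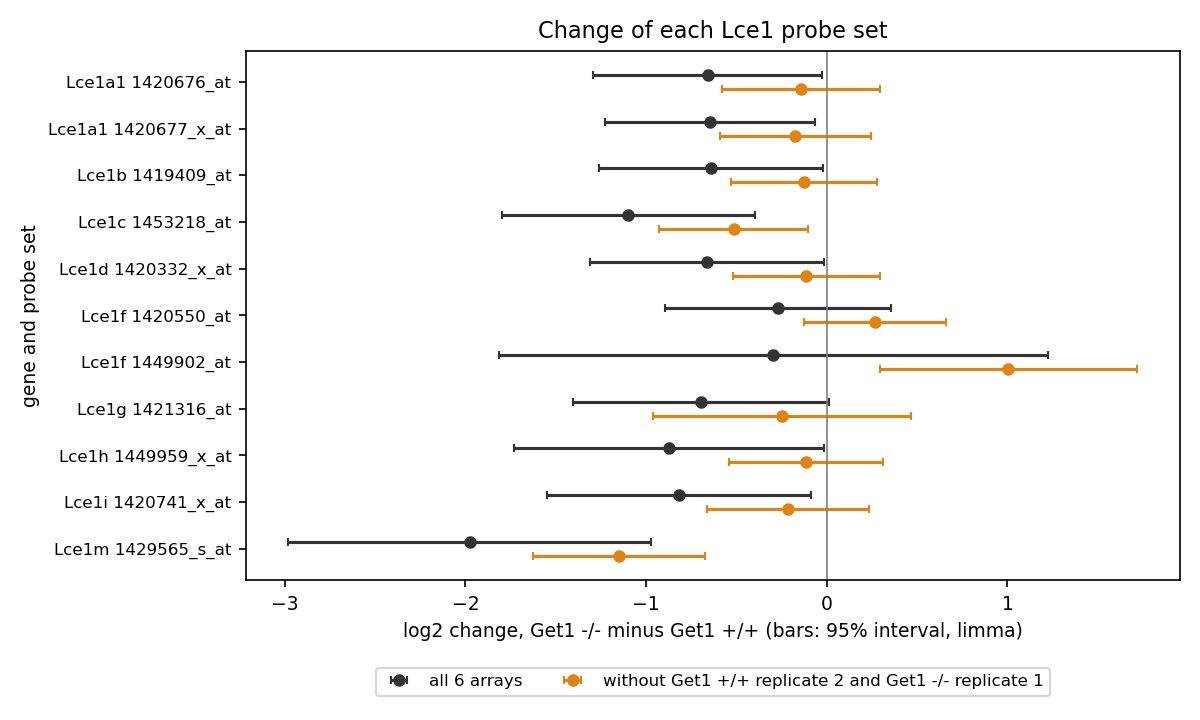
Log2 change between genotypes (horizontal axis, Get1 -/- minus Get1 +/+) of each Lce1 probe set (vertical axis), with 95% intervals from limma. Black points use all 6 arrays, orange points leave out Get1 +/+ replicate 2 and Get1 -/- replicate 1. The change of Lce1m is -1.98 and -1.15 and that of Lce1c -1.10 and -0.52, with all 4 intervals below 0, while both Lce1f points move to the right of 0. The arrays left out were picked as the Lce1 extremes, so the orange points and intervals are a description only.

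Lce1m was also set against the rest of the group within each array. It was picked for this as the member with the largest change, so what follows is a description with no test. The deviation of Lce1m minus the median deviation of the other 10 Lce1 probe sets was 0.54, 0.67 and 0.76 in Get1 +/+ replicates 1, 2 and 3, and -1.16, -0.32 and -0.47 in Get1 -/- replicates 1, 2 and 3. These values are centred on the 6 arrays, so their distance between genotypes and not their sign is the measurement. The log2 change of Lce1m minus that of Lce1c was -0.88, minus that of Lce1h -1.10, minus that of Lce1i -1.16 and minus that of Lce1f 1420550_at -1.71. Genotypes did not overlap in any of the 10 such comparisons. All 10 use the same Lce1m values, so they are not 10 independent observations, and no share over all probe sets was computed beside them. The change of Lce1c minus those of Lce1a1 (1420676_at), Lce1b, Lce1d and Lce1f 1420550_at was -0.44, -0.46, -0.44 and -0.83, each without overlap of the genotypes. Against Lce1g, Lce1h, Lce1i and the other Lce1f probe set the genotypes overlapped. Lce1c, second by size of change, was picked in the same way, and its comparisons likewise share its own values.

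Markers of the upper epidermal layers, where Lce1 genes are made, moved in part with the same 2 arrays. Of 10 markers listed as granular and cornified, among them the suprabasal keratins Krt1 and Krt10, 9 were measured (Krt2 did not pass the filter). Of these 8 were lower in Get1 -/- skin, against 49.8% of all kept probe sets, with a median log2 change of -0.49 over the 9. In limma 0 passed, against 0.0266%, and 3 were lower at an unadjusted p under 0.05, against 3.76%, and 0 higher. Their summed signal ran from 171047 to 180714 in Get1 +/+ skin and from 118372 to 161396 in Get1 -/- skin, with the lowest value in Get1 -/- replicate 1. Krt10, Lor and Krt1 had the largest mean signals of the 9 in Get1 +/+ skin and so weigh most in this sum. Averaged over the 9, the log2 deviation reached -0.59 on the array of Get1 -/- replicate 1, against 0.32 on that of Get1 +/+ replicate 2. Of the single markers, 6 of 9 were lowest in Get1 -/- replicate 1 and 4 of 9 were highest in Get1 +/+ replicate 2. Loricrin (Lor), the main envelope protein, read 33030, 31695 and 29996 against 15062, 24161 and 29395 (1448745_s_at), so Get1 -/- replicate 3 nearly reached the Get1 +/+ range. By contrast the suprabasal keratin Krt10 read 38916, 38931 and 38570 against 35595, 32618 and 40957.

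After subtracting the mean deviation of these markers on each array, the mean Lce1 deviation was -0.025, 0.65 and -0.0084 in Get1 +/+ skin and -0.52, 0.017 and -0.11 in Get1 -/- skin. The genotypes then overlapped, while within replicate numbers the differences were -0.50, -0.63 and -0.10. For Lce1m the same subtraction left 0.50, 1.17 and 0.73 against -1.54, -0.35 and -0.50, with no overlap. The subtracted mean includes Krt1, Krt10 and Tgm3, with log2 changes of -0.12, -0.099 and 0.037. The other markers changed by -0.67 to -0.45, so subtracting those alone would remove more of the difference between genotypes. The part of the markers in the Lce1 differences was not tested.

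**Figure D3:**
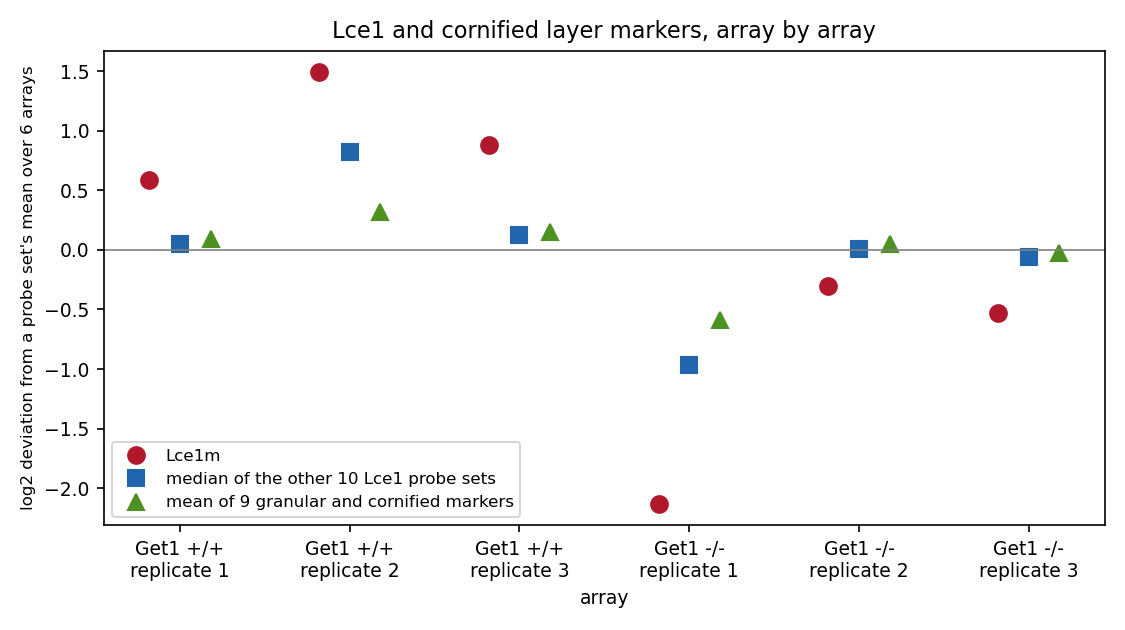
Log2 deviation from the mean of the 6 arrays (vertical axis) on each array (horizontal axis) for Lce1m (red circles), the median of the other 10 Lce1 probe sets (blue squares) and the mean of 9 granular and cornified markers (green triangles). Lce1m lies above the other symbols in all 3 Get1 +/+ arrays and below them in all 3 Get1 -/- arrays, while the squares lie near 0 on 4 arrays and at 0.82 and -0.97 in Get1 +/+ replicate 2 and Get1 -/- replicate 1.

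Other cell types in the tissue were read from their markers. In limma 0 of 36 measured markers passed, where 0.0266% of all kept probe sets did. At an unadjusted p under 0.05, 4 were higher and 2 lower in Get1 -/- skin, 6 of 36 where 6.72% of all kept probe sets reached it. Basal keratinocyte markers (6 of 6 measured) summed to 53793 to 65291 in Get1 +/+ and 52537 to 55242 in Get1 -/- skin. Dermal fibroblast markers (6 of 6) summed to 121103 to 147960 and 122282 to 142452. Skeletal muscle markers (6 of 6) summed to 75491 to 117855 and 88589 to 133640, with the lowest value in Get1 +/+ replicate 2, and 6 of 6 had a higher mean in Get1 -/- skin (median log2 change 0.33, 1 at an unadjusted p under 0.05). Macrophage and leukocyte markers (5 of 5) summed to 6231 to 9427 and 8521 to 10499, with the lowest value in Get1 +/+ replicate 2 and the highest in Get1 -/- replicate 1, the reverse of the Lce1 extremes. Of these 5, 4 had a higher mean in Get1 -/- skin, 3 of them at an unadjusted p under 0.05, with a median log2 change of 0.49. Endothelial markers (5 of 5) summed to 3458 to 3739 and 3661 to 4320, adipocyte markers (3 of 4, without Plin1) to 18349 to 26582 and 19994 to 28032, and melanocyte markers (5 of 5) to 6805 to 11993 and 5791 to 7793. All 5 melanocyte markers had a lower mean in Get1 -/- skin, 2 of them at an unadjusted p under 0.05, with a median log2 change of -0.54. No measured marker was at 0. Their part in the Lce1 differences was not tested.

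The arrays also differed in the middle beta-actin control probe set, which read 18407 to 19858 on Get1 +/+ replicates 1 and 2 and Get1 -/- replicate 1 and 10118 to 13060 on the other 3. Within the first 3 arrays the median Lce1 change was -1.41 and that of Lce1m -3.17. Within the other 3 they were -0.14 and -1.30. Each of these values rests on a single array of 1 genotype. The first 3 arrays hold both Lce1 extremes, Get1 +/+ replicate 2 and Get1 -/- replicate 1, and the other 3 hold neither. The split therefore follows the Lce1 extremes as well as the actin signal, and the 2 cannot be told apart here. The 3' to 5' signal ratio of beta-actin, a measure of RNA integrity, was 1.35 to 1.37 in Get1 +/+ skin and 1.36 to 1.49 in Get1 -/- skin. That of Gapdh was 0.69 to 0.81 in Get1 +/+ skin and 0.73 to 0.84 in Get1 -/- skin. The Gapdh ratio was lowest in Get1 +/+ replicate 2 and highest in Get1 -/- replicate 1, the arrays of the Lce1 extremes. The part of these ratios in the result was not tested. The Grhl3 probe set read 478, 934 and 670 against 246, 413 and 380, a log2 change of -0.98 ± 0.29 (adjusted p = 0.737, limma), with no overlap of the genotypes. Whether it lies in the removed part is not given, so it does not settle the labels.

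Elsewhere in the epidermal differentiation complex the changes went both ways. Of 53 other genes listed, 38 had a probe set, and of 45 probe sets 31 passed the filter, 20 of them lower and 11 higher in Get1 -/- skin, with a median log2 change of -0.13. Limma called 0 lower and 3 higher, against 0.00888% and 0.0178% of all kept probe sets. At an unadjusted p under 0.05, 7 were lower and 7 higher, against 3.76% and 2.97%. The 3 were those of Sprr2d, a small proline-rich envelope precursor (2.84 ± 0.22, adjusted p = 0.00413), Rptn, which encodes repetin (4.78 ± 0.42, adjusted p = 0.00885), and the probe set shared by Sprr2a1, Sprr2a2 and Sprr2a3 (2.32 ± 0.22, adjusted p = 0.0104). The next smallest p among higher values was that of another Sprr2a probe set (1450618_a_at, 2.01 ± 0.27, adjusted p = 0.093). Rptn 1433210_at and 1433211_at gave low signals that did not pass the filter. In the fit without filter they changed by 0.68 ± 0.47 and -0.95 ± 0.52, the second in the other direction.

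The lower values with the smallest p were those of Lor 1420183_at (-0.54 ± 0.16), Sprr1a (-1.27 ± 0.49), the envelope precursor involucrin (Ivl 1422222_at, -1.30 ± 0.51) and S100a10 1439348_at (-0.85 ± 0.34), each with an adjusted p of 0.737. The other 2 S100a10 probe sets did not follow, at 0.12 and -0.019. The other Ivl probe set, 1439878_at, gave higher signals and changed by -0.75 ± 0.41. The genotypes overlapped for Sprr1a, both Ivl probe sets and S100a10 1439348_at. The signals of Lce1a2 and Lce1l, the other Lce1 genes with a probe set, were 11364, 15696 and 13746 against 6089, 11063 and 13271, and 478, 1255 and 522 against 245, 821 and 482. Both had the lowest value in Get1 -/- replicate 1 and the highest in Get1 +/+ replicate 2, as the 11 Lce1 probe sets did, and changed by -0.49 ± 0.26 and -0.56 ± 0.48.

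The neighbours of Lce1m differed in direction. Crct1, the gene beside it in the list, read 15694, 22148 and 19477 against 6516, 15755 and 13719, a change of -0.76 ± 0.30 with overlap of the genotypes. Of the Lce3 genes between Lce1m and the main run, Lce3c read 242, 226 and 345 against 647, 2188 and 1298, a change of 2.20 ± 0.40 (adjusted p = 0.331, limma), and every Get1 -/- array lay above every Get1 +/+ array. Lce3b, which gave low signals, changed by -0.13 ± 0.39. Lce3a and Lce3f did not pass the filter, and all 3 of their Get1 -/- values lay above all 3 Get1 +/+ values. Lce3f read 11.7, 31.5 and 13.5 against 391, 836 and 602, and Lce3a 5.40, 11.4 and 5.96 against 48.6, 72.4 and 23.6. In the fit without filter they changed by 5.09 ± 0.48 and 2.61 ± 0.72. Their Get1 +/+ signals were very low, so the size of these changes is uncertain. Kprp, between the main Lce1 run and Lce1l, changed by -1.12 ± 0.47.

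**Figure D4:**
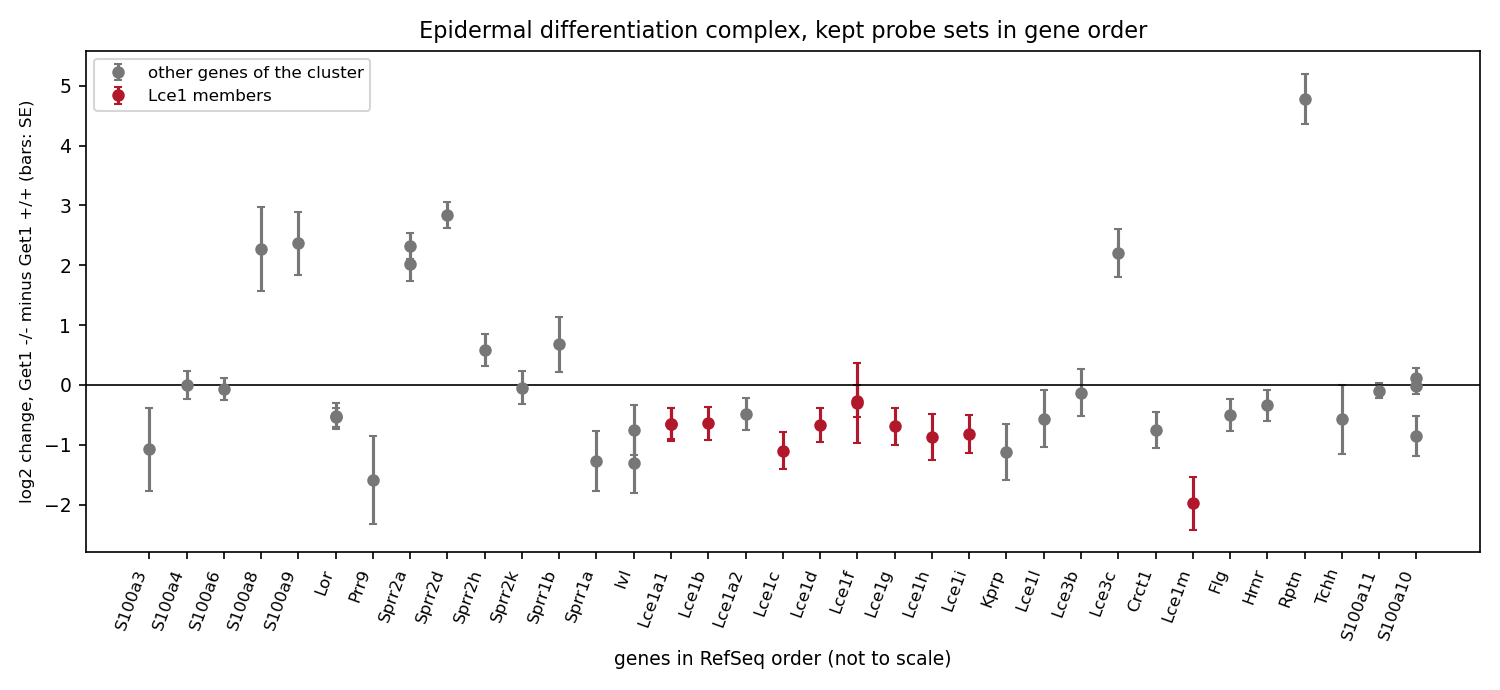
Log2 change between genotypes (vertical axis, Get1 -/- minus Get1 +/+, bars are the SE from limma) of the kept probe sets of the epidermal differentiation complex, with genes along the horizontal axis in RefSeq order, not to scale. The Lce1 members (red) all lie below 0, from -0.27 to -1.98, while probe sets of Rptn, Sprr2d, Sprr2a, Lce3c, S100a8 and S100a9 lie above 2.

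The probe sets whose pattern over the 6 arrays was most like the mean of the 11 Lce1 probe sets, among 19696 with 1 gene symbol, were those of Araf, Fam160a1, Fam107b, Msn and Tubgcp2. Pearson's r was the measure of likeness and ran from 0.995 to 0.998, and Spearman's rho from 0.771 to 1. They were picked as the highest of many over 6 arrays, so these values are a description only. Their own changes between genotypes were smaller than the Lce1 median, between -0.50 and -0.24. Fam107b, for example, read 658, 909 and 638 against 373, 614 and 593.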

How the data were processed

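Biotin-labelled cRNA from back skin of 6 mice (3 Get1 +/+ and 3 Get1 -/-) was hybridised to 1 array each. The deposited values are linear signal intensities, made by the authors with MAS5 per the submitters' processing notes, version not given in the sources used here, and the table holds no detection calls. The 2% trimmed mean was 500 on every array, and the arrays were compared as deposited. Precision is limited by their number.

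Of 45101 probe sets, 64 controls were left out. Values were turned into log2, and probe sets with a mean at or above the median of all (a signal of 137) were kept, which left 22519. The two-sided test of genotype was that of limma 3.58.1 (R 4.3.3), by lmFit and by eBayes with its trend option, with Benjamini-Hochberg adjustment over all kept probe sets. The fit was tested on simulated data with independent noise for each probe set. These held no extreme arrays, no replicate effect and no correlation between probe sets, so the simulation does not cover those features. Promoters were aligned globally with Biopython 1.88. The RefSeq table of GRCm38.p6 was used for names and gene order.

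Once genotype means were removed, arrays that carry the same replicate number correlated at 0.133, 0.26 and 0.14 over the kept probe sets, all above the limit of 0.1, so the numbers were treated as pairs in an alternative fit. The labels name no shared litter or day. Arrays of unequal number were not correlated for comparison. This pairing is a hint from the data only.

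The named genes were all 9 Lce1 genes, Grhl3, up to 4 other cluster probe sets per direction with the smallest p and any that passed, and the 5 probe sets most like the Lce1 mean. Crct1, Kprp, the Lce3 genes, S100a8, S100a9, Lce1a2, Lce1l and Krt10 were chosen after their values were seen. The members and lists were chosen with earlier results of these data known.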

Additional observations from a re-analysis of the deposited data

How the results depend on the processing

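Each result was recomputed under no filter, a stricter filter (70th percentile), median centring, quantile normalization, log2 after adding 37.6, eBayes without trend, array weights, the replicate block, 1 probe set a gene and each array left out, and, chosen after seeing the data, with Get1 +/+ replicate 2 and Get1 -/- replicate 1 both left out. The stricter filter removed Lce1g, and 1 probe set a gene removed the second probe sets of Lce1a1 and Lce1f, so these have no value there. All Lce1 genes other than Lce1f kept a negative change under all of these. When 1 array was left out, Lce1f 1420550_at ran from -0.44 to 0.012, reversing without Get1 -/- replicate 1, and it reversed to 0.27 without both arrays. Lce1f 1449902_at ran from -0.81 to 0.45 and reversed to 0.26 without Get1 -/- replicate 1, to 0.45 without Get1 +/+ replicate 2 and to 1.01 without both. The cause was not tested. The count of Lce1 probe sets past the threshold was 0 in all settings other than the replicate block, where it was 1 (Lce1m). The block changed no other Lce1 call. The median Lce1 change ran from -0.85 to -0.36 when 1 array was left out and was -0.65 over the 6 probe sets without _x or _s in their names. The count over all kept probe sets, 6, was 13 with median centring, 35 with the replicate block, 10 without both arrays and 4 to 25 when 1 array was left out. Other cluster probe sets past the threshold numbered 2 to 4.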

Other observations

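When the arrays were centred within genotype, so that only the spread between mice of the same genotype counted, the 5 probe sets most like the Lce1 mean over the 6 arrays were those of Pold3, Morf4l2, Tmcc3, Il22ra1 and Septin8. Their r ran from 0.997 to 0.999, as the highest of 19696, and is a description only. Il22ra1, which encodes a subunit of the interleukin-22 receptor, read 174, 344 and 193 in Get1 +/+ skin and 62.2, 144 and 121 in Get1 -/- skin, in replicate order, a log2 change of -1.14 ± 0.40. Tmcc3 read 917, 1377 and 960 against 401, 713 and 650, a change of -0.90 ± 0.26. In both the genotypes did not overlap, and neither passed in limma (adjusted p = 0.737). Morf4l2 had the same order of arrays with a change of only -0.043 ± 0.10.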
